A study of Mus musculus with 4 samples.

Results

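Pf4, Ppbp, Gp1ba, Gp1bb, Gp5, Gp6, Gp9, Treml1 and Nfe2, 9 genes expressed mainly in megakaryocytes and platelets, were followed by gene symbol in RNA from bone marrow mesenchymal stem cells, the stromal cells of marrow. All 9 were found among the 54532 genes of the deposited count table. The libraries labelled rhebCKO came from 2 mice carrying Ucp1-Cre and floxed Rheb alleles, in which Rheb, which encodes a GTPase upstream of the growth kinase mTORC1, is deleted in the brown adipocyte lineage. The control libraries came from 2 littermates with the floxed Rheb alleles. All 4 animals were C57BL/6J mice 1 month old, given as male in the labels. Ucp1-Cre is driven from the brown fat gene Ucp1, so the comparison asks what differs in marrow cells of an animal whose deletion is directed to another cell type. The sources used here do not say how the marrow cells were isolated.

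Megakaryocytes are the large marrow cells that shed platelets into the sinusoids. The transcription factor NF-E2, whose large subunit is encoded by Nfe2, is needed late in their maturation, downstream of GATA1. Platelets catch on injured vessel wall through the GPIb-IX-V complex, which binds von Willebrand factor, and through GPVI, which binds collagen, and they then release granules rich in the chemokines encoded by Pf4 and Ppbp.

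Levels are given as CPM (read counts scaled to a common library size) after TMM scaling, a correction for differences in library composition. Total counts were 17476868 and 17425669 in the libraries labelled rhebCKO and 18776563 and 19001878 in control libraries. The replicate numbers went with sex-linked transcripts. Xist, which coats the silenced X, had 31103 counts in rhebCKO replicate 1 and 19502 in control replicate 1. It had 2 counts in rhebCKO replicate 2 and 8 in control replicate 2. The Y-linked Ddx3y had 0 counts in both replicate 1 libraries, against 1631 in rhebCKO replicate 2 and 1945 in control replicate 2. By these transcripts the replicate 1 libraries read as female, against their male label, and the replicate 2 libraries read as male. Log2 ratios within each replicate number are therefore given beside the group difference of each tested platelet gene. Rheb had 129 and 121 CPM in the libraries labelled rhebCKO, against 89.6 and 81.4 CPM in controls, and Ucp1 had 1 read in all, so neither checks a deletion in brown fat. All 12 macrophage markers of a list were read, with summed levels of 9115 and 11445 CPM in rhebCKO and 11806 and 8431 CPM in controls, and 10 stromal markers, among them the collagen gene Col1a1, summed to 22553 and 24586 CPM in rhebCKO and to 21500 and 31595 CPM in controls.

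Of the 9 genes, 8 had enough reads to be tested, and all 8 had a log2 fold change (rhebCKO over control) below 0, as did 51.2% of all tested genes. None of the differences passed a test adjusted over all genes: 0 of 8 passed edgeR's quasi-likelihood test with Benjamini-Hochberg adjustment over 14963 tested genes at 0.05, and over all tested genes 0% did. DESeq2 and limma-voom also called 0 of the 8 (0.154% and 0% of all genes). At an unadjusted p under 0.05 edgeR had 1 of the 8 genes at lower levels, Gp5, against 1.10% of all tested genes, and DESeq2 and limma-voom had 2 each (1.56% and 1.66% of all genes in either direction, and 1.86% by edgeR). The groups did not overlap, with both rhebCKO libraries below both controls, for 5 of the 8: Ppbp, Gp1ba, Gp5, Gp6 and Treml1. For Treml1 the margin was 5.29 against 5.33 CPM. Over all tested genes 11.3% had both rhebCKO libraries below both controls. A log2 fold change of -0.5 or lower was seen for 5 of the 8, namely Ppbp, Gp1ba, Gp5, Gp9 and Treml1, and for 6.18% of all tested genes. The median log2 fold change was -0.71 over the 8 genes and -0.01 over all tested genes. For a single gene, the smallest p that exact permutation of 2 against 2 libraries (both sides) allows is 0.333.

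The low values came mostly from 1 library. Of the 8 genes, 7 had their lowest level in rhebCKO replicate 1, against 25.2% of all tested genes. Within replicate 1 all 8 were lower in rhebCKO, with a median log2 ratio of -1.38, and within replicate 2 the median was -0.31, with 6 of 8 lower (25.4% of all tested genes were lower within both numbers). Without rhebCKO replicate 1 the median log2 fold change was -0.24, and without rhebCKO replicate 2 it was -1.40. In bulk RNA, fewer megakaryocytes or platelets in a preparation and less of these transcripts per cell cannot be told apart.

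**Figure D1:**
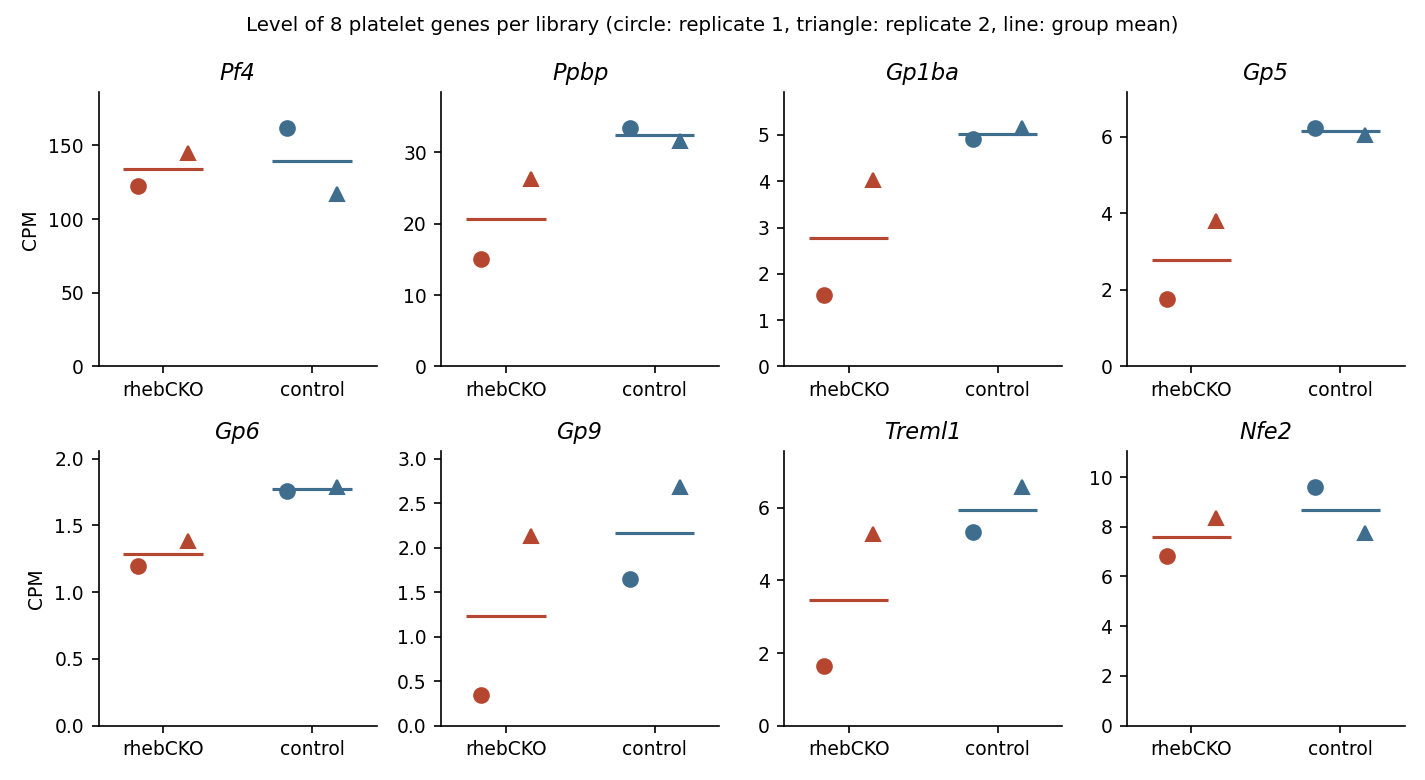
Level in CPM after TMM scaling (vertical axis, from 0) of 8 genes in the rhebCKO (left) and control (right) libraries; circles are replicate 1, triangles replicate 2 and lines the mean of each group. Ppbp, Gp1ba, Gp5, Gp6 and Treml1 have both rhebCKO libraries below both controls, while Pf4, Gp9 and Nfe2 overlap.

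The chemokine genes Pf4 and Ppbp lie side by side on chromosome 5 of mm10, both protein coding and on the plus strand, Ppbp at 90768518 to 90770063 and Pf4 at 90772435 to 90773383, with 2371 bases between them. Pf4 (ENSMUSG00000029373) encodes platelet factor 4, a CXC chemokine of alpha granules that binds heparin and is also made by macrophages. Ppbp (ENSMUSG00000029372) encodes pro-platelet basic protein, the precursor of the neutrophil attractant NAP-2.

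Pf4 had 122 and 145 CPM in rhebCKO libraries, against 162 and 117 CPM in control libraries. The means were 134 ± 16.1 CPM in rhebCKO and 139.6 ± 31.7 CPM in controls (SD, n = 2 each). The groups overlapped, and Pf4 was lower within replicate 1 (log2 ratio -0.41) and higher within replicate 2 (0.31). Its log2 fold change over the 4 libraries was -0.06 (SE 0.23, edgeR adjusted p = 1).

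Ppbp had 15.1 and 26.3 CPM in rhebCKO libraries, against 33.4 and 31.6 CPM in control libraries. The means were 20.7 ± 7.95 CPM in rhebCKO and 32.5 ± 1.33 CPM in controls (SD, n = 2 each). The controls lay close together, and rhebCKO replicate 1 was the lowest of the 4. The log2 fold change was -0.65 (SE 0.30, edgeR adjusted p = 1), or -0.31 without rhebCKO replicate 1 and -1.11 without rhebCKO replicate 2. The ratio of the replicate 1 libraries was -1.15 and that of the replicate 2 libraries -0.26 on the log2 scale.

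The ratio of the neighbours differed between libraries: Ppbp reads came to 12.3% and 18.1% of Pf4 reads in rhebCKO libraries and to 20.6% and 26.9% in control libraries. A second ratio was taken to Csf1r, which encodes the macrophage colony-stimulating factor receptor and was picked after its values were seen. Pf4 reads were 17.9% and 17.8% of Csf1r reads in rhebCKO libraries and 20.2% and 19.9% in controls. Ppbp reads were 2.21% and 3.22% of Csf1r reads in rhebCKO libraries and 4.17% and 5.35% in controls. Csf1r itself had 683 and 817 CPM in rhebCKO and 802 and 590 CPM in controls. The ratio depends on the gene chosen. Against the summed reads of all 12 listed macrophage genes, Pf4 was nearly level, at 1.34% and 1.27% in rhebCKO libraries and 1.37% and 1.39% in controls. How much of Pf4 was read in macrophages was not tested.

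The promoter windows of the pair, 250 bases before to 50 after the RefSeq start site (GRCm38.p6, plus strand, chr5:90772185-90772484 for Pf4 and chr5:90768268-90768567 for Ppbp), are shown because the neighbours differ in level and in pattern. Capitals mark matches to the letters searched in all the windows printed here: for GATA factors AGATAA or AGATAG or TGATAA or TGATAG, for ETS factors AGGAAG or CGGAAG, for RUNX factors TGTGGT and for NF-E2 TGAGTCA, each on either strand, and for a TATA box TATAAA on the gene's strand.
Pf4: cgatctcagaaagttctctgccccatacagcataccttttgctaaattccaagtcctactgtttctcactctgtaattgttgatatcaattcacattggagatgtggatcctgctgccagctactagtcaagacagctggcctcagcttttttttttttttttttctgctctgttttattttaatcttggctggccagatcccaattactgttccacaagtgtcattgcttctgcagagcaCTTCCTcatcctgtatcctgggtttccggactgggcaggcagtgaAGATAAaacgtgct
Ppbp: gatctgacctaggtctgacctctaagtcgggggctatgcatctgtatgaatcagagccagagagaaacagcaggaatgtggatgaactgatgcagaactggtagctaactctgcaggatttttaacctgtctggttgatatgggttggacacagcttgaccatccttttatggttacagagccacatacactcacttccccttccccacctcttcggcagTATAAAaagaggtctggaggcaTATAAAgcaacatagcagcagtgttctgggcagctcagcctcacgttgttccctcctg

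The Pf4 window held 1 GATA and 1 ETS match and no TATAAA, and the Ppbp window held 2 TATAAA matches, beginning at -30 and -8 from the start site, and no GATA or ETS match. TATAAA was present in 8.3% of the 32851 RefSeq promoter windows.

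The GPIb-IX-V receptor is built from 4 gene products, and their genes lie apart. Gp1ba (ENSMUSG00000050675; chromosome 11, 70639122 to 70642036, plus strand) encodes the chain that holds the von Willebrand factor site, Gp9 (ENSMUSG00000030054; chromosome 6, 87778072 to 87779768, plus strand) and Gp1bb (ENSMUSG00000050761; chromosome 16, 18620317 to 18622403, minus strand) encode small chains needed for its surface expression, and Gp5 (ENSMUSG00000047953; chromosome 16, 30307685 to 30310779, minus strand) encodes a chain that thrombin cleaves.

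Gp5 had 1.77 and 3.80 CPM in rhebCKO libraries, against 6.24 and 6.05 CPM in control libraries. The means were 2.78 ± 1.44 CPM in rhebCKO and 6.14 ± 0.135 CPM in controls (SD, n = 2 each). It had the lowest fold change of the 8, and its controls differed little from each other. The log2 fold change was -1.14 (SE 0.43), with an unadjusted p of 0.0300 and an adjusted p of 1 by edgeR. Without rhebCKO replicate 1 it was -0.69 and without rhebCKO replicate 2 it was -1.79. On the log2 scale the replicate 1 libraries gave a ratio of -1.76 and the replicate 2 libraries one of -0.66. Over the alternatives that kept 2 libraries a group, with edgeR, DESeq2 or limma-voom, the adjusted p of Gp5 was 0.996 or higher.

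Gp1ba had 1.54 and 4.03 CPM in rhebCKO libraries, against 4.91 and 5.15 CPM in control libraries. Both rhebCKO libraries lay below the controls, replicate 2 by less than the gap between the rhebCKO libraries themselves. The log2 fold change was -0.85 (SE 0.48, edgeR adjusted p = 1), -0.32 without rhebCKO replicate 1 and -1.70 without rhebCKO replicate 2. Within replicate 1 the log2 ratio of Gp1ba was -1.61 and within replicate 2 it was -0.35.

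Gp9 had 0.342 and 2.13 CPM in rhebCKO libraries, against 1.65 and 2.68 CPM in control libraries. The groups overlapped, since rhebCKO replicate 2 lay above control replicate 1. Replicate 1 labelled rhebCKO held 6 reads of Gp9 (exact Poisson 95% interval 2.20 to 13.1, counting error alone) and control replicate 1 held 31 (21.1 to 44.0). The log2 fold change was -0.81 (SE 0.75, edgeR adjusted p = 1), -0.03 without rhebCKO replicate 1, -2.64 without rhebCKO replicate 2 and -0.40 without control replicate 2. By limma-voom it was -1.26 (SE 0.77). Within replicate 1 the log2 ratio of Gp9 was -1.99 and within replicate 2 it was -0.32. Gp9 reached the low-count limit of 0.552 CPM in 1 of 2 rhebCKO libraries and 2 of 2 controls, and the other 7 tested genes reached it in all 4.

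Gp1bb had 0 counts in all 4 libraries, which at a floor of 3 counts (the exact two-sided Poisson 95% upper limit is 3.69) allows 0.171 and 0.173 CPM in rhebCKO libraries and 0.160 and 0.158 CPM in controls, so it was not tested. Of its 2087 exon bases in the table, 1938 (92.9%) are also exon bases of another gene on the same strand, with 149 left to itself. Sept5, the septin gene just upstream, shares 1902 of them and had 317 and 293 counts in rhebCKO libraries and 314 and 406 in controls. The rule for reads that lie in more than 1 gene is not stated in the labels, so the 0 counts do not show that Gp1bb was unexpressed. The other 8 genes share no exon base with another gene of the table.

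Summed over Gp1ba, Gp5 and Gp9, the receptor genes had 64 and 173 reads in rhebCKO libraries and 240 and 264 in control libraries. Against Pf4 of the same library that was 2.98% and 6.86% in rhebCKO and 7.90% and 11.8% in controls. Per exon length the 3 genes were near each other, with mean levels over the 4 libraries of 2.03 CPM per kilobase for Gp5, 1.93 for Gp9 and 1.44 for Gp1ba.

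The windows of Gp1ba (GRCm38.p6, chr11:70638872-70639171, plus strand) and Gp5 (chr16:30310732-30311031, minus strand, printed as transcribed) are shown for the 2 receptor genes with the largest edgeR differences over the 4 libraries (Gp9 exceeded Gp1ba by limma-voom, within replicate 1 and with the replicate block, at -1.10 against -0.97), and capitals mark the same letters as above.
Gp1ba: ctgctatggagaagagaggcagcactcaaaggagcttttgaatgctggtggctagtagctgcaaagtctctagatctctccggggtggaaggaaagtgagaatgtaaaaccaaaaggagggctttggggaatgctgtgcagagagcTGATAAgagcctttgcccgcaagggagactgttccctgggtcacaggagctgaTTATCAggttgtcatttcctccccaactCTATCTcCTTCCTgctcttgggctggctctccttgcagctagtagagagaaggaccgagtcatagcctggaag
Gp5: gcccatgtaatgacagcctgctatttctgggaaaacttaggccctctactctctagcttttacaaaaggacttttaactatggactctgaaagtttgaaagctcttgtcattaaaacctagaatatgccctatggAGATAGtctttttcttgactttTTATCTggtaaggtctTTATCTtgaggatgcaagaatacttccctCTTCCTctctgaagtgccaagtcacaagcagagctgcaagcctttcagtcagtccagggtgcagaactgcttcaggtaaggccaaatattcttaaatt

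Both windows held 3 GATA matches and 1 ETS match. RefSeq windows were found for 8 of the 9 genes, Nfe2 being the one without. A GATA match was in 5 of these 8 (29.8% of all windows), an ETS match in 5 of 8 (46.5%), a RUNX match in 1 of 8 (16.8%), TATAAA in 1 of 8 (8.3%) and TGAGTCA in 0 of 8 (5.2%). By gene, GATA matches numbered 3 for Gp1ba and Gp5, 1 for Pf4, Gp1bb and Gp6, and 0 for Ppbp, Gp9 and Treml1. Whether the matches go with the group differences was not tested. A match to these letters is a description and not a bound site.

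Gp6 (ENSMUSG00000078810; chromosome 7, 4363965 to 4397744, minus strand) encodes GPVI, the collagen receptor that signals through the Fc receptor gamma chain. It had 1.20 and 1.38 CPM in rhebCKO libraries, against 1.76 and 1.79 CPM in control libraries. The groups did not overlap, and Gp6 varied least in fold among the glycoprotein genes, by 1.49-fold between the highest and lowest library. Its counts were 21 and 24 in rhebCKO (exact Poisson 95% intervals 13 to 32.1 and 15.4 to 35.7) and 33 and 34 in controls (22.7 to 46.3 and 23.5 to 47.5), so the intervals of the groups overlapped. Its log2 fold change was -0.46 (SE 0.46, edgeR adjusted p = 1), with log2 ratios of -0.52 within replicate 1 and -0.35 within replicate 2. The partner gene Fcer1g, which macrophages also express, had 217 and 222 CPM in rhebCKO and 278 and 161 CPM in controls (log2 fold change 0.00).

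Treml1 (ENSMUSG00000023993; chromosome 17, 48359916 to 48367176, plus strand) encodes a receptor stored in platelet alpha granules and shown on the surface after activation. It had 1.65 and 5.29 CPM in rhebCKO libraries, against 5.33 and 6.57 CPM in control libraries. Replicate 2 labelled rhebCKO and control replicate 1 were almost level, with 92 reads (exact Poisson 95% interval 74.2 to 113) and 100 (81.4 to 122). The lack of overlap between the groups rests on that margin, which is within counting error. For Treml1 the log2 fold change was -0.78 (SE 0.53, edgeR adjusted p = 1), -0.17 without rhebCKO replicate 1 and -1.84 without rhebCKO replicate 2. The log2 ratio of Treml1 was -1.63 within replicate 1 and -0.31 within replicate 2.

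Nfe2 (ENSMUSG00000058794; chromosome 15, 103248212 to 103258403, minus strand) had 6.84 and 8.34 CPM in rhebCKO libraries, against 9.60 and 7.73 CPM in control libraries. The groups overlapped, with a log2 ratio of -0.48 within replicate 1 and 0.11 within replicate 2. For Nfe2 the log2 fold change was -0.19 (SE 0.30, edgeR adjusted p = 1). Erythroid cells also use NF-E2. Of their listed genes, Hba-a2, Slc4a1 and Car1 had 0 counts in all 4 libraries. Klf1, the erythroid transcription factor, had 1 and 7 counts in rhebCKO and 1 and 3 in controls. Not all were so low: Epor had 34 and 50 counts in rhebCKO and 45 and 92 in controls. Of 16 erythroid genes listed, 15 had a row, 3 were tested, and the list summed to 4.79 and 5.18 CPM in rhebCKO and 4.53 and 6.31 CPM in controls. Of the 3 tested, 1 (Epor) had lower and 2 had higher values in rhebCKO, with a median log2 fold change of 0.17. The part of erythroid cells in the Nfe2 level was not tested.

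**Figure D2:**
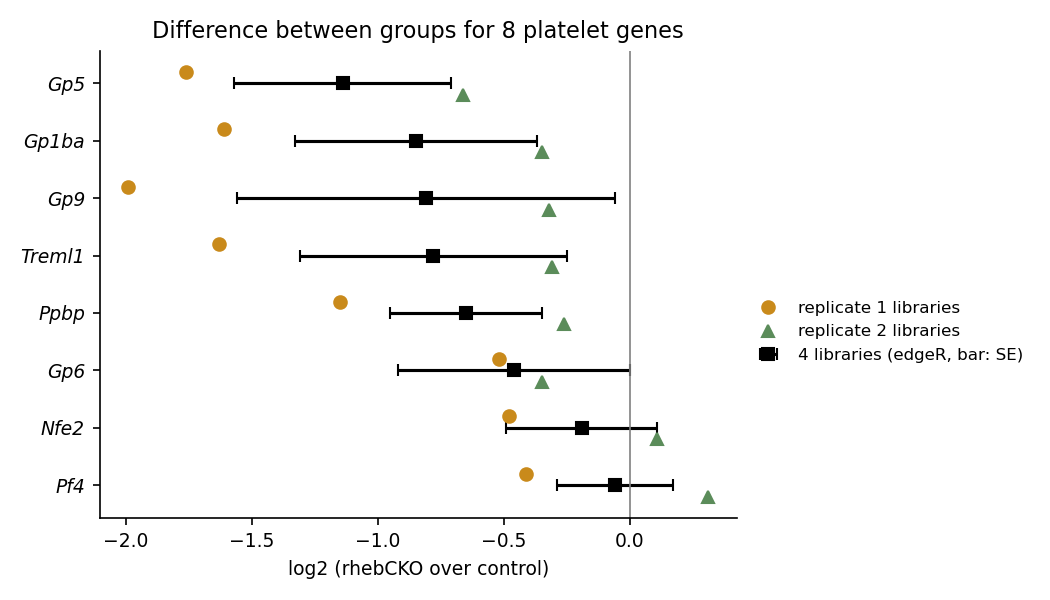
Log2 ratio of rhebCKO over control (horizontal axis) for 8 genes; squares with bars are the edgeR log2 fold change over 4 libraries with its SE, circles the ratio of the replicate 1 libraries and triangles that of the replicate 2 libraries (CPM + 0.1). All circles lie below 0 and left of their triangle, and the triangles of Pf4 and Nfe2 lie above 0.

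Per exon length, Pf4 stood first with a mean of 190 CPM per kilobase over the 4 libraries, higher than 98.7% of tested genes, and Ppbp second with 24.5. Treml1 (3.36), Nfe2 (2.72), Gp5 (2.03), Gp9 (1.93), Gp1ba (1.44) and Gp6 (0.260) followed. Pf4, Ppbp and Gp6 kept these places, the first, the second and the last of the 8, in each of the 4 libraries. From Treml1 to Gp1ba each gene's range over the libraries overlapped that of the next in this order, while Nfe2 and Gp1ba, which are not neighbours in it, did not overlap. The values were 1.18 and 3.78 in rhebCKO and 3.80 and 4.69 in controls for Treml1, and 2.29 and 2.79 in rhebCKO and 3.21 and 2.59 in controls for Nfe2, and 0.567 and 1.48 in rhebCKO and 1.80 and 1.90 in controls for Gp1ba. The genes varied to different degrees: between the highest and lowest library Gp9 differed 7.84-fold, Treml1 3.97-fold, Gp5 3.53-fold, Gp1ba 3.35-fold and Ppbp 2.22-fold, but Gp6 1.49-fold, Nfe2 1.40-fold and Pf4 1.38-fold.

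**Figure D3:**
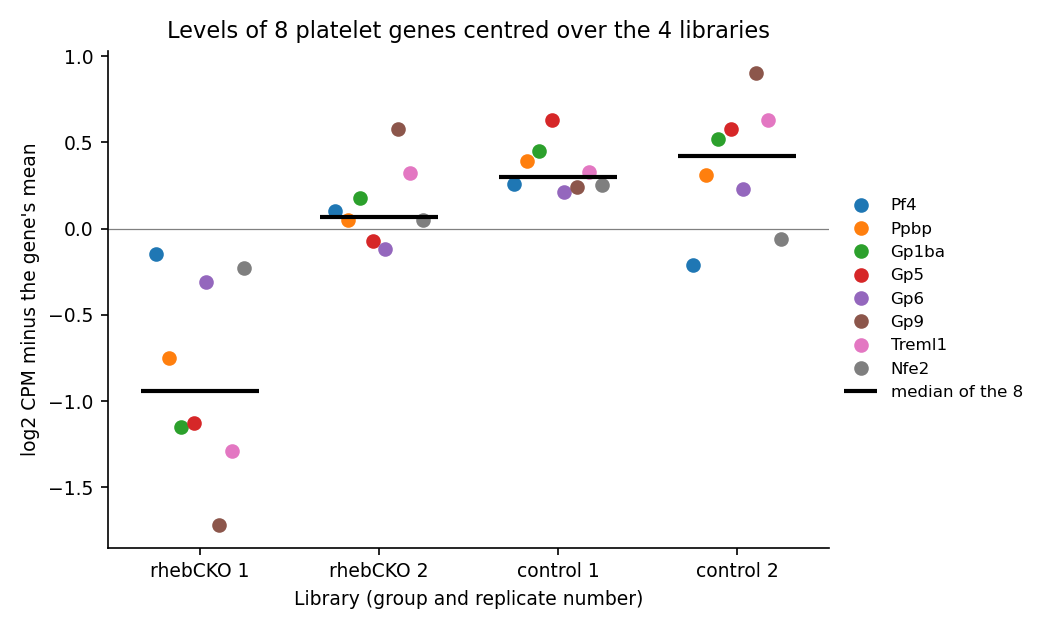
Log2 CPM (prior count 2) of 8 genes minus each gene's mean over the 4 libraries (vertical axis), for the rhebCKO libraries (left) and the controls (right); points are genes and bars their median. The median was -0.94 and 0.07 in rhebCKO replicates 1 and 2 and 0.30 and 0.42 in control replicates 1 and 2.

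Among 10337 other protein-coding genes, the 5 whose centred levels lay nearest to that median profile over the 4 libraries were Clu, Plpp7, Col20a1, 1700020L24Rik and Hoxc9, at root mean square distances of 0.154 to 0.199 on the log2 scale. Clu, which encodes clusterin, had 4.62 and 8.11 CPM in rhebCKO and 8.27 and 10.9 CPM in controls. With 4 libraries many genes share such an order, so the distance is a description alone.

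Other genes of the lineage were taken from lists by role. Of 13 megakaryocyte transcription factors, all tested, 7 had lower and 6 higher values, with a median log2 fold change of -0.01, 0 called by edgeR, DESeq2 or limma-voom and 2 at an unadjusted p under 0.05 by edgeR. Gata1, the factor that drives megakaryocyte and erythroid genes, had 0.741 and 0.863 CPM in rhebCKO libraries and 1.60 and 2.10 CPM in controls (log2 fold change -1.20, SE 0.50, edgeR adjusted p = 1), with ratios of -1.01 and -1.19 within replicates 1 and 2. Gfi1b, a repressor that works beside GATA1, had 1 and 6 counts in rhebCKO libraries and 15 and 16 in controls, and it passed the low-count limit through the controls alone, a choice that fixes the direction of its difference. Meis1 and Runx1, which stem and stromal cells also use, had log2 fold changes of -0.33 (SE 0.28) and -0.22 (SE 0.28). The ratios of Runx1 had opposite signs, 0.38 within replicate 1 and -0.75 within replicate 2. Other factors of the list sat near 0, such as Fli1 at 0.11 (SE 0.24), the ETS factor of megakaryocytes and endothelium. Mafg, which encodes a small Maf partner of NF-E2, was at 0.11 (SE 0.20). Gata2 at -0.05 (SE 0.37), Zfpm1 at -0.11 (SE 0.32), Tal1 at -0.01 (SE 0.28) and Lyl1 at 0.04 (SE 0.24) also sat near 0.

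Of 16 other receptors and adhesion molecules, all tested, 9 had lower and 7 higher values (median -0.20), with 0 called by edgeR, DESeq2 or limma-voom and 0 at an unadjusted p under 0.05 by edgeR. Itga2b, the alpha chain of the fibrinogen receptor, had 10.4 and 26.4 CPM in rhebCKO and 24.7 and 39.7 CPM in controls, and its partner Itgb3, also read in other cells such as osteoclasts, had 119 and 157 CPM in rhebCKO and 111 and 134 CPM in controls. For Itga2b the groups overlapped, since rhebCKO replicate 2 lay above control replicate 1 (log2 fold change -0.81, SE 0.44). Itgb3 was named after its values were seen. Itga2b reads were 8.73% and 16.8% of Itgb3 reads in rhebCKO and 22.3% and 29.5% in controls. Ptgir, the prostacyclin receptor, had 7.30 and 13.7 CPM in rhebCKO and 7.15 and 6.00 CPM in controls (log2 fold change 0.68, SE 0.37), and Tbxa2r, the thromboxane receptor, was high in control replicate 2 alone at 9.05 CPM, with 2.62 and 3.68 CPM in rhebCKO and 2.13 CPM in the other control.

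Of 14 granule and secreted proteins, all tested, 10 had lower and 4 higher values (median -0.12), with 0 called by edgeR, DESeq2 or limma-voom and 0 at an unadjusted p under 0.05 by edgeR. Mmrn1, which encodes the factor V carrier multimerin, had 3.14 and 3.57 CPM in rhebCKO and 4.80 and 7.15 CPM in controls (log2 fold change -0.83, SE 0.37). Nbeal2, needed to form alpha granules, had a log2 fold change of 0.44 (SE 0.25), Clu of -0.59 (SE 0.36) and Rab27b, a dense granule GTPase, of -0.47 (SE 0.33). Of 18 cytoskeleton and signalling genes, all tested, 7 had lower and 11 higher values (median 0.11), with 0 called by the same 3 tools and 1 at an unadjusted p under 0.05 by edgeR. That gene, Tubb1, encodes the beta tubulin of the platelet marginal band; it had 5 and 4 counts in rhebCKO and 12 and 19 in controls, and passed the low-count limit through the controls alone. Syk and Lat, which signal below GPVI and are shared with other blood cells, had log2 fold changes of 0.41 (SE 0.27) and 0.73 (SE 0.56), and Ptgs1, the constitutive cyclooxygenase, of 0.32 (SE 0.24).

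Markers of other cells in the same libraries are given beside these values, and their part in them was not tested. Of the 12 macrophage genes, all tested, 4 had lower and 8 higher values (median 0.07), with 0 at an unadjusted p under 0.05 by edgeR. The 10 neutrophil genes, all tested, summed to 1920 and 2349 CPM in rhebCKO and 2769 and 952 CPM in controls (median 0.09), with control replicate 2 lowest. The 7 tested of 10 B cell genes all had lower values in rhebCKO (median -1.75), with 0 called by edgeR, 3 at an unadjusted p under 0.05 and 1 called by DESeq2. Their list summed to 103 and 71.8 CPM in rhebCKO and 135 and 120.4 CPM in controls. Most of that sum was Ebf1, which stromal cells also use, with 86.6 and 60.3 CPM in rhebCKO and 69.2 and 86.0 CPM in controls (log2 fold change -0.08), whereas Jchain had 7.24 and 3.17 CPM in rhebCKO and 44.6 and 24.8 CPM in controls.

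The 10 endothelial genes, all tested, all had higher values (median 0.33), with 0 called by edgeR and 2 at an unadjusted p under 0.05, and summed to 1120 and 1300 CPM in rhebCKO and 913 and 1030 CPM in controls. Of the 10 stromal genes, all tested, 9 had lower values and 1 a higher one (median -0.41), with 0 called by edgeR and 1 at an unadjusted p under 0.05. The median over these genes was 0.08 between the replicate 1 libraries and -0.53 between the replicate 2 libraries. The mast cell and basophil list had 5 of 10 genes tested (median -0.44) and summed to 58.7 and 59.4 CPM in rhebCKO and 61.9 and 38.6 CPM in controls, most of it Kit, with 47.2 and 49.8 CPM in rhebCKO and 38.8 and 33.8 CPM in controls. The lowest of the 4 libraries was rhebCKO replicate 1 for 0 of 10 neutrophil, 0 of 7 B cell, 0 of 10 endothelial, 0 of 10 stromal, 1 of 5 mast cell and 5 of 12 macrophage genes. It was so for 8 of 13 megakaryocyte transcription factors, 6 of 16 other platelet receptors, 6 of 14 granule and secreted protein genes and 5 of 18 cytoskeleton and signalling genes, beside 7 of the 8 tested among the 9 platelet genes.

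**Figure D4:**
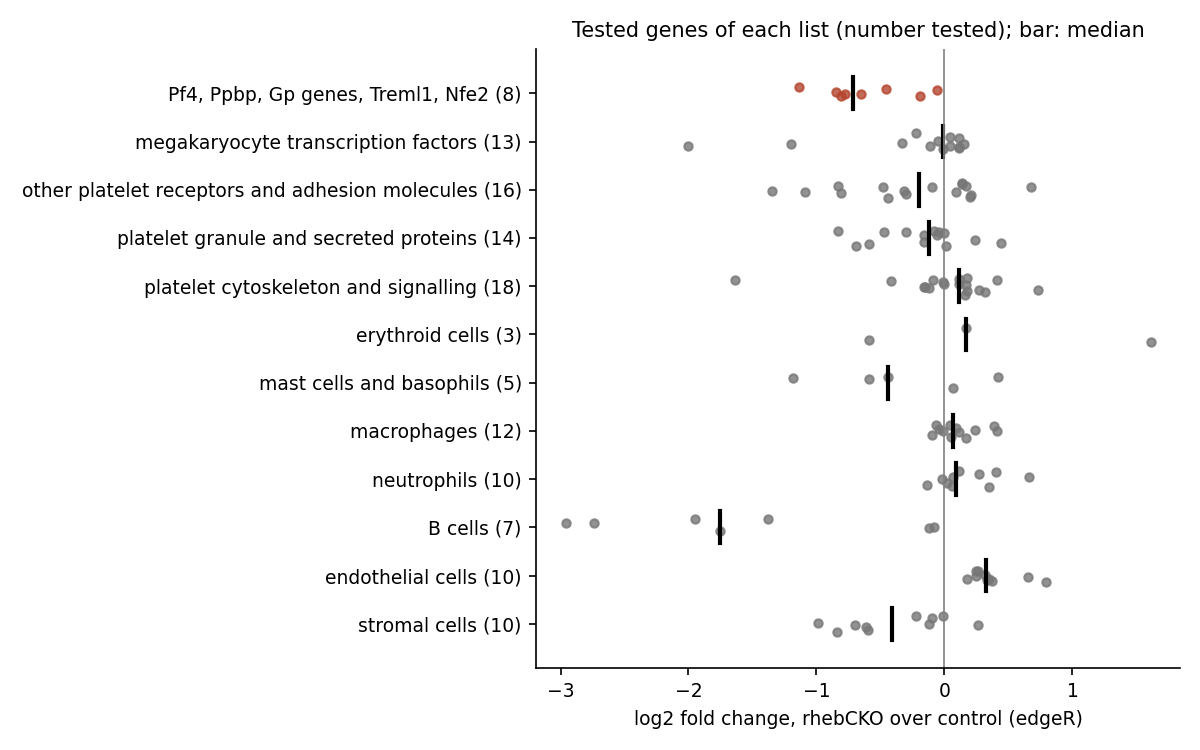
Log2 fold change of rhebCKO over control (horizontal axis, edgeR) for the tested genes of each list, with the number tested in brackets; points are genes, bars medians. The 8 platelet genes all lie below 0 with a median of -0.71, the other platelet lists spread to both sides with medians from -0.20 to 0.11, and the B cell list has the lowest median, -1.75.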

How the data were processed

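RNA-seq of bone marrow mesenchymal stem cells was compared between 2 rhebCKO and 2 control libraries. Per the labels' protocols, Trizol total RNA was made into libraries with a TruSeq v.2 kit. The authors deposited raw read counts per gene. Trimmomatic, HISAT2, featureCounts and mm10 are named in the submitters' processing notes, and their versions and settings were not given in the sources used here. Gene positions and IDs came from the deposited table, and of 54532 IDs 54409 were found in GENCODE M21.

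Counts were scaled by TMM, filtered by filterByExpr and tested with edgeR 4.0.16 (quasi-likelihood, group as the only term) under R 4.3.3, with Benjamini-Hochberg adjustment. The steps were tested on simulated counts with the same dispersion for every gene and no difference between replicate numbers, unlike these libraries. Each edgeR SE comes from the size of the fold change and the root of F, and the limma-voom SE from the fold change and its t statistic. Ratios within a replicate number used CPM + 0.1. Poisson intervals and the floor of 3 counts cover counting error only. P-values set a group difference against the spread between libraries of the same group. With group as the only term, that spread includes whatever differs between the replicate numbers. Alternatives were median-of-ratios and total-count scaling, other filters, DESeq2 1.42.0, limma-voom (limma 3.58.1), a replicate block and leaving out each library.

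The genes and lists were chosen with earlier results of these data known. Named genes are the 9, up to 4 of smallest p in each other list and the 5 nearest profiles. Csf1r, Itgb3, Fcer1g, Fli1, Mafg, Gata2, Zfpm1, Tal1, Lyl1, Col1a1, Ebf1 and the erythroid genes were named after their values were seen. Values of 2 listed genes are not reported here. Promoters are RefSeq GRCm38.p6.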

Additional observations from a re-analysis of the deposited data

Results flagged for a closer look

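Pf4 and Nfe2 had ratios of opposite direction in the 2 replicate numbers. The log2 ratio of rhebCKO over control for Pf4 was -0.41 within replicate 1 and 0.31 within replicate 2. For Nfe2 it was -0.48 within replicate 1 and 0.11 within replicate 2. Each ratio compares 1 library with 1 library, and the difference between the replicate numbers was not tested.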

How the results depend on the processing

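The number of platelet genes called was 0 under every alternative run. Over all tested genes edgeR called 0, DESeq2 called 23, and leaving out 1 library gave 0 to 183, with 183 without control replicate 1 and 61 without control replicate 2. The median log2 fold change of the tested platelet genes was -0.71, and -1.40 to -0.24 when 1 library was left out, -1.38 for the replicate 1 libraries alone and -0.31 for the replicate 2 libraries alone. The other alternatives gave medians from -0.85 with limma-voom to -0.65 with at least 5 CPM in 2 libraries, where 5 of the genes were left. Pf4 changed direction, with -0.26 to 0.19 when 1 library was left out (0.06 without rhebCKO replicate 1, 0.19 without control replicate 1) and 0.31 in the replicate 2 libraries alone, and Nfe2 to 0.11 in the replicate 2 libraries alone. The cause was not tested. The other 97 of 101 alternatives for single genes kept direction and side of the threshold. With the replicate block the median was -0.83 and 0 genes were called. The labels do not say what the shared numbers mark. By Xist and Ddx3y they go with sex, replicate 1 reading as female and replicate 2 as male. Over tested genes, the deviations of same-numbered libraries from their group means correlated at r = 0.25. With 2 libraries a group these deviations mirror each other, so the 2 pairs are not separate evidence. The number of genes without overlap was 5 under TMM, median-of-ratios and total-count scaling, and the median without Pf4 was -0.78. Both of these were added after the data were seen. Depth limits Gp9 and Gp6 most, with 6 to 51 and 21 to 34 reads a library.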

Other observations

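In the deposited table, 27 gene symbols had been turned into dates, 14 of them in the form of septin genes (Sep) and 13 in that of March genes (Mar). All 27 were named from their gene IDs. Sept5, the gene that shares exon bases with Gp1bb, is one of them.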
